A study of Mus musculus with 4 samples.

Results

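The genes described here are 36 regulators and machine parts of mitosis, taken from the deposited table of 56953 genes by gene symbol. They comprise cyclins and mitotic kinases, the spindle checkpoint, kinetochore and chromosomal passenger proteins, spindle motors and cytokinesis proteins. All 36 were found and all 36 passed the filter on low counts. Their RNA was measured in dorsal skin of wild-type C57BL/6J mice, 3 days into a topical treatment. One group of 2 libraries came from skin given NEDD8i at 10 µM, for which the sources used here give no other name, and the other group of 2 libraries from skin given the solvent DMSO. The labels call the tissue full-thickness skin, although the extraction text refers to cells, and do not say whether the replicates were separate mice, so p-values measure the spread between these libraries, which may be technical.

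A dividing cell enters mitosis when cyclin B and the kinase Cdk1 reach full activity, and kinetochores then attach chromosomes to the spindle. The spindle checkpoint holds the anaphase-promoting complex (APC/C), a ubiquitin ligase, inactive until every chromosome is attached, after which cohesion and cyclin B are destroyed and the cell divides. In skin these genes are used mainly by basal keratinocytes of the epidermis and by the matrix cells of growing hair follicles. NEDD8, after which the compound is labelled, is a ubiquitin-like protein whose attachment to cullins activates cullin-RING ubiquitin ligases. These degrade several cell cycle regulators.

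Total counts were 8856572 and 8833217 in NEDD8i replicates 1 and 2, against 5955627 and 5639791 in DMSO replicates 1 and 2, and 3 ribosomal RNA genes took 52.6% to 61.7% of them. The 36 genes together had 2751 and 4077 reads after NEDD8i, against 5213 and 4485 in DMSO. Levels below are normalised CPM, read counts scaled to library sizes that were adjusted with TMM factors (trimmed mean of M values), on which a floor of 3 reads stands at 0.36 to 0.543. Markers of basal keratinocytes were abundant, whereas 8 endothelial genes had 3 to 25 reads per library, so vascular RNA was scarce for full-thickness skin. Hair shaft and inner root sheath markers came to 461 and 892 normalised CPM in NEDD8i replicates 1 and 2, against 8514 and 775 in DMSO replicates 1 and 2, so DMSO replicate 1 stood apart. Over the 11388 genes tested, the log2 CPM of the 2 DMSO libraries correlated at 0.870, less than DMSO replicate 2 did with NEDD8i replicate 2 (0.887), while the 2 NEDD8i libraries correlated at 0.943.

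Most mitosis genes had lower levels after NEDD8i, and the checkpoint kinase gene Bub1b was the 1 that passed the test. In the edgeR test over 11388 genes, with p-values adjusted after Benjamini and Hochberg, Bub1b fell, 0 members rose and 35 did not pass at 0.05. Of all tested genes 0.782% were called, 0.114% lower and 0.667% higher. At an unadjusted p under 0.05, 18 of 36 members were lower and 0 higher, against 7.86% and 8.62% of all genes tested. The log2 fold change was negative for 34 of 36 members, and the median was -0.91, where the median of all genes tested was 0.00 and 50.1% of them were negative. The same number, 34 of 36, was negative with the other scalings tried (RLE factors, plain library sizes and a table without ribosomal RNA genes). It was 29 and 35 without NEDD8i replicates 1 and 2, and 31 and 32 without DMSO replicates 1 and 2. Without NEDD8i replicate 1 far fewer members were lower at an unadjusted p under 0.05, and the median log2 fold change of the 36 members was -0.70.

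The libraries separated by group for most members. Both NEDD8i libraries lay below both DMSO libraries for 26 of 36 members in normalised CPM, against 22.9% of all genes tested, and for 29 of 36 in plain CPM, against 32.1%. Spc25, Cdca8 and Kif4 were apart in plain CPM but overlapped in normalised CPM. One member, Aurka, lay above in both NEDD8i libraries, against 25% of all genes tested in normalised CPM and 15.9% in plain CPM. NEDD8i replicate 1 was the lowest of the 4 libraries for 27 members and NEDD8i replicate 2 for 6. Within the NEDD8i group replicate 2 was the higher for 29 of 36 members, by a median of 0.50 on the log2 scale. Within the DMSO group each replicate was the higher for 18 members, with a median difference of -0.01 (replicate 1 minus 2). Single members differed more in either direction, such as Ccnb1 at 9.43 and 4.17 and Anln at 10.3 and 21.7 normalised CPM in DMSO replicates 1 and 2. The sum of the 36 genes was 753 and 1206 CPM outside ribosomal RNA in NEDD8i replicates 1 and 2, against 1846 and 1960.4 in DMSO replicates 1 and 2. These sums averaged 980 ± 321 after NEDD8i and 1903 ± 81.0 in DMSO (SD, n = 2 each), and a two-sided exact permutation test gave p = 0.333, the smallest that 2 against 2 allows. In bulk skin, fewer dividing cells and less of these RNAs per cell cannot be told apart.

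**Figure D1:**
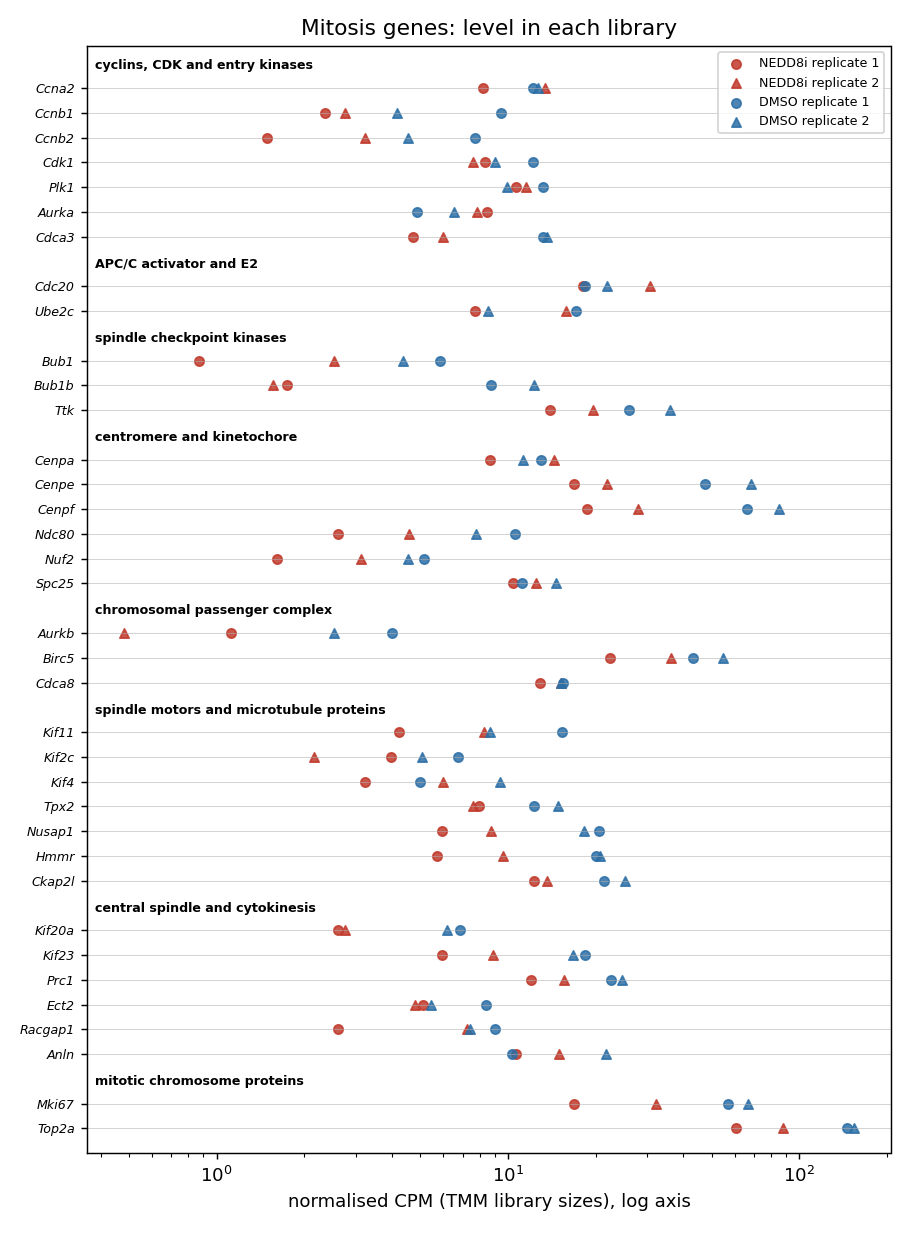
Level of each of the 36 mitosis genes in each library, in normalised CPM on a log axis, grouped by role; red marks are NEDD8i and blue marks DMSO libraries, circles replicate 1 and triangles replicate 2. Both red marks lie left of both blue marks for 26 genes, and right of them for Aurka.

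Promoters of genes expressed in G2 and mitosis are known for a short element, the cell cycle genes homology region (CHR), bound by the MuvB complex that represses these genes in resting cells and, with B-Myb and FoxM1, activates them in dividing ones. CCAAT boxes bound by the factor NF-Y often stand beside it. RefSeq promoter windows of the GRCm38.p6 build, from 250 bases before to 50 after the gene start, were at hand for 32 of 36 members, all but Ccna2, Tpx2, Aurkb and Kif20a. The letters TTTGAA, the common form of the CHR, occurred on either strand in 26 of 32 windows (81.2%), against 18.1% of 27025 windows of all genes. TTTAAA occurred in 28.1% against 13.2%, TTCGAA in 9.38% against 1.57%, and at least 1 of these 3 forms in 30 of 32 (93.8%) against 29.0%. CCAAT occurred on either strand in 26 of 32 (81.2%) against 37.9%, and at least 2 times in 19 of 32 (59.4%) against 12.2%. Among the 16 windows of members lower at an unadjusted p under 0.05, TTTGAA was in 12, TTTAAA in 4, TTCGAA in 3 and CCAAT in 14. Among the 16 windows of the other members, TTTGAA was in 14, TTTAAA in 5, TTCGAA in 0 and CCAAT in 12. At least 1 CHR form was in 15 of each, and no difference between these windows was tested. Each motif was counted on its own and matches of different motifs may overlap. A match is a description of these letters, not a measured binding site.

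The windows of the 6 members with the smallest p are shown, since these are the genes whose levels differed most clearly. Only the 250 bases before the start are given, 5′ to 3′ on the gene's strand, and capitals mark the 3 CHR forms and the CCAAT boxes named above, on either strand. They lie at chr2:118597961-118598210 (plus strand) for Bub1b, chr1:189688087-189688336 (minus) for Cenpf, chr3:135212313-135212562 (plus) for Cenpe, chr2:119618048-119618297 (plus) for Nusap1, chr11:40733438-40733687 (minus) for Hmmr and chr7:135716380-135716629 (minus) for Mki67.
Bub1b: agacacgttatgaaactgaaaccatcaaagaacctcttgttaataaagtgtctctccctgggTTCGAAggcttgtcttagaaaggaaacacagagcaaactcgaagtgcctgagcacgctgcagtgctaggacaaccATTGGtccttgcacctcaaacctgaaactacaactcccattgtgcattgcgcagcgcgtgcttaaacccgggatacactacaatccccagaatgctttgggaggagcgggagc
Cenpf: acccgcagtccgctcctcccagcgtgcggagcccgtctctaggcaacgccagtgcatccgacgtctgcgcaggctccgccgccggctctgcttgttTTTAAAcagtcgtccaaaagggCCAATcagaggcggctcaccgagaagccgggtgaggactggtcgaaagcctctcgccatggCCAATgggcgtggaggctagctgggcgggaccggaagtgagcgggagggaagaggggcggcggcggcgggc
Cenpe: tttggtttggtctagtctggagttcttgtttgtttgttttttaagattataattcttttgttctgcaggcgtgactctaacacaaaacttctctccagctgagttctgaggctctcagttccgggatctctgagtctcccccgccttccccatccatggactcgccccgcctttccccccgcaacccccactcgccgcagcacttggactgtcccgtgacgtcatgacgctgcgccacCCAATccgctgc
Nusap1: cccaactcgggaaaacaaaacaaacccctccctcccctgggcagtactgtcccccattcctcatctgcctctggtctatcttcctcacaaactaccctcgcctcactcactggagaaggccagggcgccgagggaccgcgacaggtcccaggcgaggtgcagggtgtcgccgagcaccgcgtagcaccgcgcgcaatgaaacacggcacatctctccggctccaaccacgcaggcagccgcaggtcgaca
Hmmr: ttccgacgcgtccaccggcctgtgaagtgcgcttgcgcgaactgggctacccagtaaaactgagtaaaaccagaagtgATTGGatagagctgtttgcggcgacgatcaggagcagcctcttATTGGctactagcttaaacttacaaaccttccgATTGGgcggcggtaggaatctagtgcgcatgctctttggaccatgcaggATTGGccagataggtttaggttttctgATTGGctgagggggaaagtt
Mki67: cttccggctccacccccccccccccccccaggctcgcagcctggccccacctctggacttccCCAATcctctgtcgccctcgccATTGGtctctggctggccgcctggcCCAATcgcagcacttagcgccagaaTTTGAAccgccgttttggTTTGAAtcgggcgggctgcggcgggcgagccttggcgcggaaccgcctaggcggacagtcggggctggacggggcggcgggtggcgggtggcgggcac

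Mki67 carried TTTGAA beginning 116 and 98 bases before the start, with 3 CCAAT boxes upstream of them, and Hmmr carried 5 CCAAT boxes, all on the opposite strand. Bub1b held TTCGAA 188 bases and 1 CCAAT box 113 bases before the start. Cenpe held 1 CCAAT box before the start and TTTAAA past it, and the whole Nusap1 window held none of these motifs. In Bub1b, Cenpf and Hmmr a TTTGAA lay past the start, its first base at bases 41, 3 and 9 of the transcribed part. A stretch of 24 bases holding each is shown with that motif in capitals; for Cenpf and Hmmr it spans or adjoins the start, and for Bub1b it lies wholly past it. They are at chr2:118598237-118598260, chr1:189688070-189688093 and chr11:40733415-40733438 of the same build.
Bub1b, past the start: caagagacgttaaaTTTGAAactt
Cenpf, at the start: ggcgggcagTTTGAAtcgctcgtg
Hmmr, at the start: tgaggtaaaTTTGAAttcaggcga

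Of the 8 roles, the spindle checkpoint kinases had the lowest median log2 fold change, -1.58 over 3 genes. Bub1b encodes BubR1, the part of the mitotic checkpoint complex that holds the APC/C activator Cdc20, and lies on chromosome 2, 118428692 to 118472072, plus strand, in the deposited coordinates, which are taken to be GRCm39. It had 14 and 13 reads after NEDD8i, against 61 and 68 in DMSO. In normalised CPM this was 1.74 and 1.56 after NEDD8i, against 8.72 and 12.3 in DMSO, and the groups were far apart, with means of 1.65 ± 0.125 after NEDD8i and 10.5 ± 2.54 in DMSO (SD, n = 2 each). The log2 fold change was -2.66 (SE 0.47, adjusted p = 0.0458 by edgeR). The direction held in all 13 alternatives, with log2 fold changes of -2.90 to -2.37, but the call did not: it was lost when NEDD8i replicate 1 was left out (adjusted p = 0.243), when replicate 2 of that group was left out (adjusted p = 0.253), with limma-voom (adjusted p = 0.102), with plain library sizes (adjusted p = 0.0513) and without edgeR's robust option (adjusted p = 0.0731), where adjusted p over all alternatives ran from 1.72e-05 to 0.253.

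The other checkpoint kinases were lower without passing. Bub1, which recruits checkpoint proteins to the kinetochore, stood at 0.869 and 2.52 normalised CPM after NEDD8i, against 5.86 and 4.35 in DMSO, a log2 fold change of -1.58 (SE 0.63, adjusted p = 0.259 by edgeR). Ttk, the kinase Mps1 at the head of the checkpoint, stood at 13.9 and 19.6 after NEDD8i, against 26.01 and 36.04 in DMSO (log2 fold change -0.89, SE 0.33, adjusted p = 0.233 by edgeR). Neither gene's groups overlapped. With 93 reads in all libraries together, Bub1 was far less precisely measured than Ttk with 656.

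At the centromere and kinetochore Cenpf and Cenpe stood well below their DMSO levels, and the centromeric histone Cenpa stood near it. Cenpf, a kinetochore protein of the outer corona (chromosome 1, 189372803 to 189420283, minus strand), was at 18.6 and 28.0 normalised CPM after NEDD8i, against 66.3 and 85.1 in DMSO. Its log2 fold change of -1.70 (SE 0.32) narrowly missed, with an adjusted p of 0.0548 by edgeR. Cenpe, the kinesin that carries chromosomes to the metaphase plate (chromosome 3, 134918298 to 134979372, plus strand), was at 16.9 and 21.9 after NEDD8i, against 47.4 and 68.1 in DMSO (log2 fold change -1.57, SE 0.32, adjusted p = 0.0653 by edgeR). In both genes each NEDD8i library had less than each DMSO library by a wide gap. Both passed in 5 of 13 alternatives, adjusted p running from 5.51e-07 to 0.568 for Cenpf and from 2.91e-06 to 0.588 for Cenpe.

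Ndc80, Nuf2 and Spc25 belong to the NDC80 complex, the coupler between kinetochore and microtubule. Ndc80 was at 2.61 and 4.57 normalised CPM after NEDD8i, against 10.6 and 7.79 in DMSO (log2 fold change -1.35, SE 0.46, adjusted p = 0.196 by edgeR). Nuf2 had a log2 fold change of -1.02 (SE 0.55) and Spc25 one of -0.17 (SE 0.36), with Spc25 at 10.4 and 12.5 after NEDD8i, against 11.1 and 14.7 in DMSO, where the groups overlapped. Cenpa, the histone H3 variant that marks centromeres, had a log2 fold change of -0.07 (SE 0.38) and overlapping groups. Differences between members were not tested.

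The chromosomal passenger complex corrects faulty attachments, and 3 of its subunits were members, none of which passed. Its kinase Aurkb had 9 and 4 reads after NEDD8i, against 28 and 14 in DMSO, or 1.12 and 0.481 normalised CPM after NEDD8i, against 4.002 and 2.54 in DMSO (log2 fold change -2.02, SE 0.73, adjusted p = 0.217 by edgeR). Birc5, the survivin subunit, was at 22.5 and 36.2 after NEDD8i, against 43.2 and 54.5 in DMSO (log2 fold change -0.73, SE 0.33, adjusted p = 0.309 by edgeR). Cdca8, the borealin subunit, was at 12.9 and 15.3 after NEDD8i, against 15.4 and 15.2 in DMSO, a log2 fold change of -0.12 (SE 0.33, adjusted p = 0.896 by edgeR). The groups were apart for Aurkb and Birc5 and, in normalised CPM, overlapped for Cdca8.

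Among cyclins and entry kinases the B-type cyclins and Cdca3 were lower, while the log2 fold changes of Cdk1, Plk1 and Aurka were closer to 0. Ccnb1, the main cyclin partner of Cdk1 in mitosis, was at 2.36 and 2.76 normalised CPM after NEDD8i, against 9.43 and 4.17 in DMSO (log2 fold change -1.41, SE 0.54, adjusted p = 0.243 by edgeR). Ccnb2, the Golgi-associated B-type cyclin, was at 1.49 and 3.24 after NEDD8i, against 7.72 and 4.53 in DMSO (log2 fold change -1.37, SE 0.57, adjusted p = 0.279 by edgeR). In both cyclins DMSO replicate 1 was the highest library, and without it the log2 fold changes were nearer 0, at -0.71 for Ccnb1 and -0.94 for Ccnb2. Cdca3, an F-box-like protein that promotes mitotic entry, was at 4.72 and 6.01 after NEDD8i, against 13.1 and 13.6 in DMSO (log2 fold change -1.31, SE 0.38, adjusted p = 0.140 by edgeR), without overlap.

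Cdk1 itself had a log2 fold change of -0.42 (SE 0.38) and Ccna2, the cyclin of S phase and early G2, one of -0.20 (SE 0.38). The polo kinase Plk1, which acts at centrosomes and kinetochores, was at 10.7 and 11.5 normalised CPM after NEDD8i, against 13.1 and 9.96 in DMSO, so the groups overlapped (log2 fold change -0.06, SE 0.36, adjusted p = 0.954 by edgeR). Aurka, the centrosomal Aurora kinase, was at 8.44 and 7.81 after NEDD8i, against 4.86 and 6.52 in DMSO, a log2 fold change of 0.52 (SE 0.41, adjusted p = 0.586 by edgeR). None of these 4 genes passed.

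The members that drive mitotic exit had log2 fold changes near 0. Cdc20, which activates the APC/C once the checkpoint is satisfied, was at 18.1 and 30.8 normalised CPM after NEDD8i, against 18.4 and 21.9 in DMSO (log2 fold change 0.28, SE 0.35, adjusted p = 0.755 by edgeR). Without NEDD8i replicate 2 its log2 fold change was -0.17. Ube2c, the ubiquitin-conjugating enzyme of the APC/C, was at 7.70 and 15.9 after NEDD8i, against 17.2 and 8.51 in DMSO (log2 fold change -0.13, SE 0.48). The groups overlapped for both genes, and both overlap an antisense gene with reads of its own, as given at the end.

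All 7 spindle proteins had negative log2 fold changes, between -1.40 and -0.63, and none passed. Nusap1, which binds and bundles spindle microtubules, was at 5.96 and 8.77 normalised CPM after NEDD8i, against 20.6 and 18.3 in DMSO (log2 fold change -1.40, SE 0.36, adjusted p = 0.116 by edgeR). Hmmr, a spindle pole protein, was at 5.71 and 9.61 after NEDD8i, against 20.0 and 20.6 in DMSO (log2 fold change -1.40, SE 0.38, adjusted p = 0.126 by edgeR). Ckap2l, another microtubule-associated protein, was at 12.3 and 13.6 after NEDD8i, against 21.4 and 25.2 in DMSO (log2 fold change -0.85, SE 0.32, adjusted p = 0.227 by edgeR). For these 3 genes the groups were clearly apart. The motors Kif11, which pushes spindle poles apart, Kif2c, which takes microtubules down, and Kif4, which acts on chromosome arms and the central spindle, and the Aurka activator Tpx2 lay between -0.94 and -0.63 with unadjusted p from 0.0513 to 0.25.

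The 6 cytokinesis genes also had negative values, and none passed. Kif23, a kinesin of the centralspindlin complex, was at 5.96 and 8.89 normalised CPM after NEDD8i, against 18.4 and 16.7 in DMSO (log2 fold change -1.24, SE 0.37, adjusted p = 0.149 by edgeR). Kif20a, a kinesin of the central spindle, was at 2.61 and 2.76 after NEDD8i, against 6.86 and 6.16 in DMSO (log2 fold change -1.27, SE 0.47, adjusted p = 0.221 by edgeR). Prc1, which cross-links midzone microtubules, was at 12.05 and 15.6 after NEDD8i, against 22.6 and 24.6 in DMSO (log2 fold change -0.77, SE 0.32, adjusted p = 0.275 by edgeR). None of these 3 overlapped between groups. Anln, the actin-binding scaffold of the cleavage furrow, was at 10.7 and 15.02 after NEDD8i, against 10.3 and 21.7 in DMSO, and overlapped (log2 fold change -0.31, SE 0.43). Ect2, which activates RhoA at the furrow, and Racgap1, the partner of Kif23, had log2 fold changes of -0.49 (SE 0.44) and -0.74 (SE 0.53).

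The 2 general markers of cycling cells were lower without passing. Mki67, the Ki-67 protein that coats mitotic chromosomes, was at 16.9 and 32.3 normalised CPM after NEDD8i, against 57.0 and 66.6 in DMSO (log2 fold change -1.33, SE 0.36, adjusted p = 0.128 by edgeR). Top2a, the topoisomerase that untangles chromosomes, had more reads than any other member and was at 60.5 and 88.2 after NEDD8i, against 146 and 154 in DMSO (log2 fold change -1.01, SE 0.31, adjusted p = 0.159 by edgeR). The groups did not overlap in either gene, and in both NEDD8i replicate 2 lay between NEDD8i replicate 1 and the DMSO libraries.

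**Figure D2:**
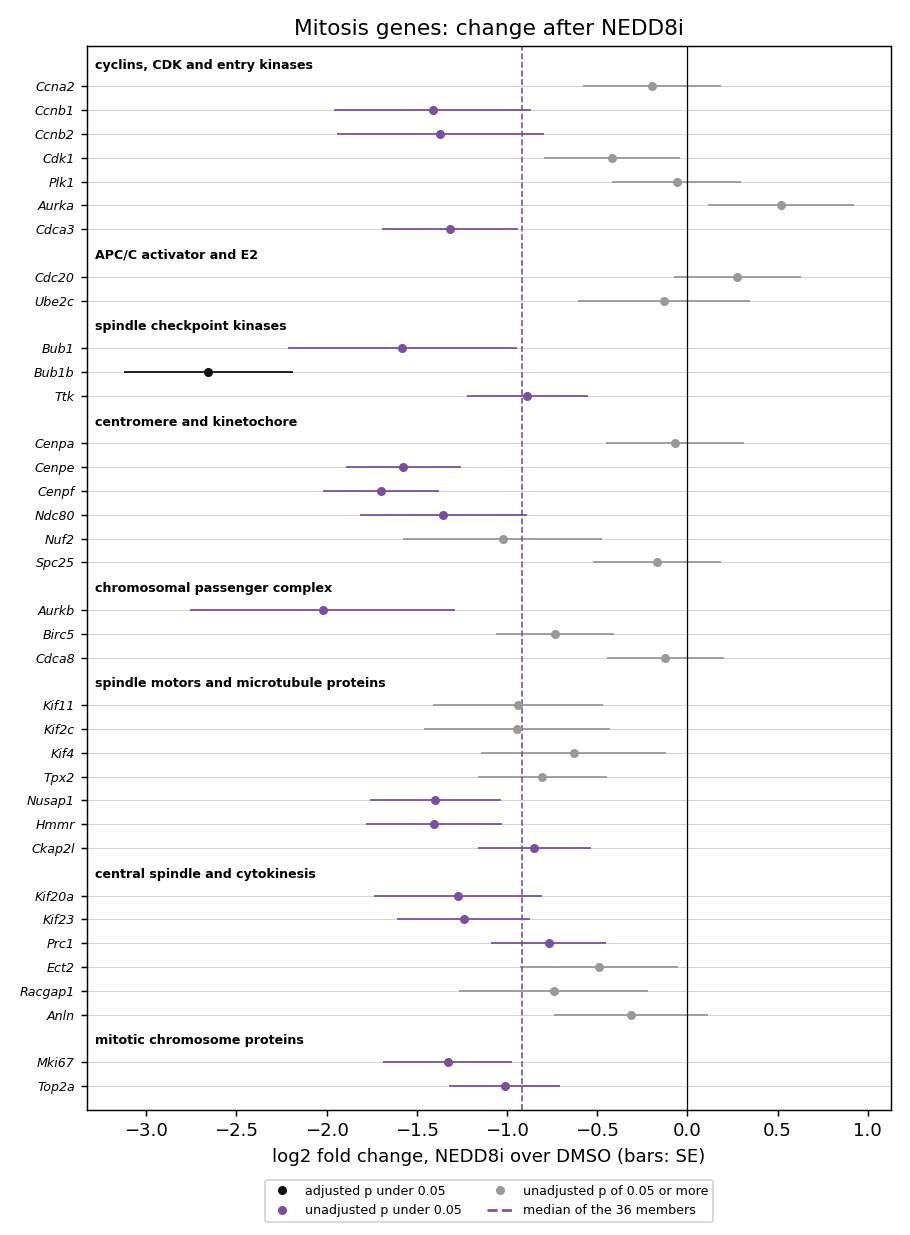
Log2 fold change of each of the 36 mitosis genes, NEDD8i over DMSO, with bars of 1 standard error, grouped by role; black marks Bub1b, which passed at an adjusted p of 0.05, purple marks an unadjusted p under 0.05 and the dashed line is the median of -0.91. Values run from -2.66 for Bub1b to 0.52 for Aurka.

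The number of members called depended on the libraries kept. With 1 DMSO library left out more were called, whichever replicate it was, and the same held over all genes tested. In both of these fits Bub1b, Cdca3, Cenpe, Cenpf, Hmmr, Kif23, Mki67, Nusap1 and Top2a were called, with Ttk without replicate 1 and Ccnb1, Kif11 and Ndc80 without replicate 2. With 1 NEDD8i library left out fewer genes were called, among the members and over all genes tested alike. In each such fit 1 group has 1 library, which is taken to vary like the libraries of the other group. The median log2 fold change was -0.70 without NEDD8i replicate 1, -1.25 without replicate 2 of that group, and -0.94 and -0.90 without DMSO replicates 1 and 2.

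Cell type markers were summed in the same libraries. Basal keratinocyte markers (14 genes, 0 called, median log2 fold change 0.24) came to 5570 and 4910 normalised CPM after NEDD8i, against 3365 and 6541 in DMSO, so DMSO replicate 1 was the lowest and DMSO replicate 2 the highest. Per 1000 reads of these markers the mitosis genes had 61.3 and 99.8 reads after NEDD8i, against 221 and 124 in DMSO (two-sided exact permutation p = 0.333, the smallest possible). The groups did not overlap on this scale either, but the log2 ratio of group means was -1.10 with all libraries and -0.62 without DMSO replicate 1, -0.79 without NEDD8i replicate 1, and -1.46 and -1.49 without DMSO replicate 2 and NEDD8i replicate 2. Without Krt5 and Krt14 in the denominator it was -0.75.

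Hair shaft and inner root sheath markers (19 of 21 tested, 0 called) had a median log2 fold change of -3.99, with most of their reads in DMSO replicate 1. Hair matrix and follicle growth markers were at 87.7 and 107 normalised CPM after NEDD8i, against 298 and 71.2 in DMSO (10 of 11 tested, 0 called, median -1.90). Within the DMSO group the mitosis genes summed to 745 normalised CPM in replicate 1 and 812 in replicate 2, and without DMSO replicate 1 their median log2 fold change was -0.94, against -0.91 with all libraries. Melanocyte markers were also highest there, at 59.7 and 61.8 after NEDD8i, against 362 and 57.8 in DMSO (4 tested, 0 called). T cell markers stood at 35.02 and 31.4 after NEDD8i, against 34.3 and 48.4 in DMSO (6 tested, 0 called). Sebaceous gland markers stood at 173 and 268 after NEDD8i, against 178 and 198 in DMSO (6 tested, 0 called). Myeloid and Langerhans markers were at 156 and 148 after NEDD8i, against 88.5 and 76.2 in DMSO (7 tested, 0 called). Neutrophil markers were at 129 and 85.3 after NEDD8i, against 23.6 and 23.001 in DMSO (4 tested, of which S100a8, also made by stressed keratinocytes, rose), while 4 defining genes, Ly6g, Camp, Ltf and Ngp, had 0 reads. The log2 fold change was positive for 3 of the 4 tested neutrophil markers and negative for 1, at -2.15. Fibroblast markers were at 97.7 and 150 after NEDD8i, against 84.2 and 73.5 in DMSO (7 tested, of which Dpt, a matrix protein, rose). At an unadjusted p under 0.05, 3 basal, 3 myeloid, 4 fibroblast and 1 sebaceous gland markers were higher and 0 lower. Of hair matrix and follicle growth markers 3 were lower and 0 higher, and of neutrophil markers 1 was lower and 2 higher. The hair shaft, melanocyte and T cell lists had 0 at that p, and of all genes tested 7.86% were lower and 8.62% higher. The part of immune, stromal and hair cells in the mitosis values was not tested.

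**Figure D3:**
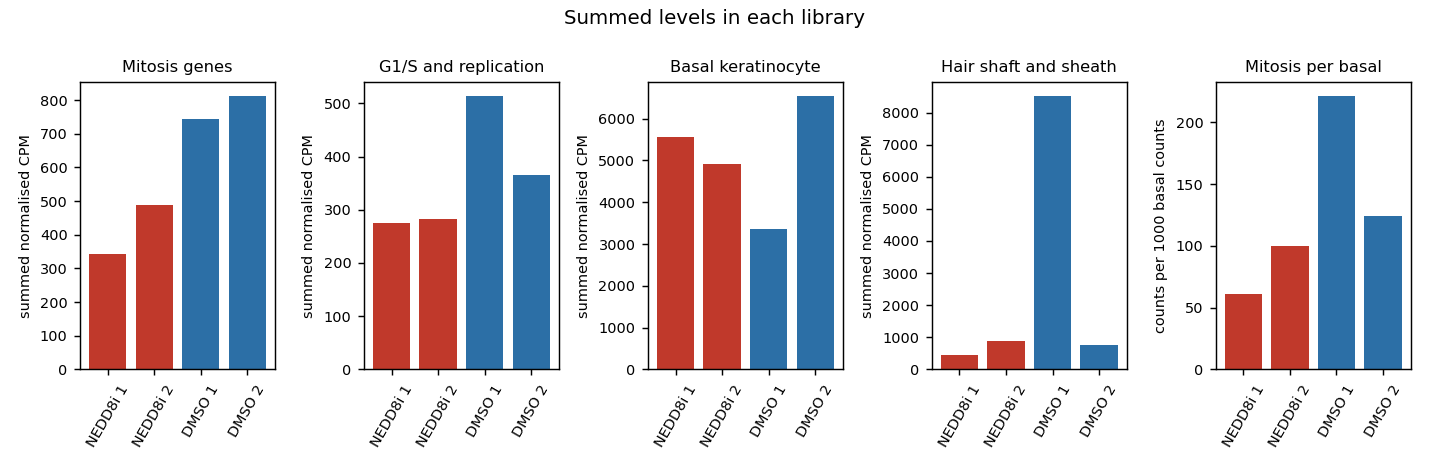
Summed level of 4 gene lists in each library in normalised CPM, and mitosis reads per 1000 basal marker reads; red bars are the NEDD8i and blue bars the DMSO replicates. The mitosis sum is 342 and 490 after NEDD8i against 745 and 812 in DMSO, while the hair sum is high in DMSO replicate 1 alone.

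Other mitosis genes, 151 in 8 lists, were set beside the members. Of 130 tested, 0 passed in either direction. At an unadjusted p under 0.05 there were 21 lower and 4 higher, against 7.86% and 8.62% of all genes tested. The log2 fold change was negative for 92, against 50.1% of all genes tested, and the median was -0.31. These shares also stand beside the counts of each list below. Condensin, which compacts chromosomes, had 8 of 8 genes negative, 5 of them at an unadjusted p under 0.05, and a median of -1.10. Its subunit genes Ncapg and Smc2 were at 5.59 and 4.69 and at 45.1 and 44.9 normalised CPM after NEDD8i, against 13.9 and 14.1 and 97.2 and 81.7 in DMSO, with log2 fold changes of -1.44 (adjusted p = 0.113 by edgeR) and -0.99 (adjusted p = 0.134 by edgeR).

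Among other spindle, centrosome and cytokinesis genes (22 of 30 tested, 8 lower at an unadjusted p under 0.05 and 0 higher, median -0.82), Aspm and Kif15 came closest to the threshold. Aspm, a spindle pole protein, was at 4.72 and 7.81 normalised CPM after NEDD8i, against 21.9 and 38.0 in DMSO (log2 fold change -2.25, SE 0.42, adjusted p = 0.0526 by edgeR). Kif15, a motor that works beside Kif11, was at 6.46 and 6.25 after NEDD8i, against 20.7 and 21.2 in DMSO (log2 fold change -1.72, SE 0.34, adjusted p = 0.0595 by edgeR). Of the other checkpoint and kinetochore genes 32 of 37 were tested, with 5 lower and 0 higher at that p and a median of -0.36. Their log2 fold changes were negative for 23 and positive for 9. The checkpoint genes Mad1l1, Bub3 and Mad2l1 had log2 fold changes of -0.05, 0.09 and -0.59, with overlapping groups. Knl1, the scaffold on which Bub1 and Bub1b dock, was at 3.97 and 6.73 after NEDD8i, against 14.7 and 18.8 in DMSO (log2 fold change -1.64, adjusted p = 0.103 by edgeR). Aspm, Kif15 and Knl1 each passed in 5 of 13 alternatives, among them those without either DMSO library, and in none without a NEDD8i library. Ska1, of the kinetochore complex that follows microtubule ends, had -1.56 (adjusted p = 0.164 by edgeR). In the passenger, shugoshin and cohesion list (15 of 17 tested, 3 lower and 0 higher, median -0.51), the cohesin acetyltransferase Esco2 had -2.03 (adjusted p = 0.147 by edgeR) and the cohesin subunit Stag2 -0.84 (adjusted p = 0.185 by edgeR).

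The APC/C core and its regulators had a median of -0.07 over 16 tested genes, with 0 at an unadjusted p under 0.05, the subunits Anapc7 at 0.80 and Cdc23 at -0.69. Anapc7 turned on 1 library, with 1.501 (adjusted p = 0.0212 by edgeR) when DMSO replicate 1 was left out and 0.36 when DMSO replicate 2 was. The mitotic entry switch had a median of 0.01 over 14 genes, again with 0 at that p, the phosphatase inhibitor Arpp19 at 0.61 and the kinase Melk at -1.17. Transcription factors of G2/M genes had a median of -0.06 over 13 genes, 7 negative and 6 positive, between -1.37 and 1.57. At that p, 0 of them were lower and 2 higher, against 7.86% and 8.62% of all genes tested. Their members E2f4, of the repressor complex DREAM, and E2f5 were at 10.7 and 9.97 and at 6.71 and 4.81 normalised CPM after NEDD8i, against 3.86 and 3.98 and 2.001 and 3.08 in DMSO (log2 fold changes 1.39 and 1.19, adjusted p = 0.141 and 0.299 by edgeR). Cell cycle brakes had a median of -0.12 over 10 genes, 6 negative and 4 positive, between -1.09 and 1.13, again with 0 lower and 2 higher. Of these 2, Sfn, the 14-3-3 sigma protein that holds cyclin B and Cdk1 in the cytoplasm, was at 1577 and 1570 after NEDD8i, against 740 and 699 in DMSO (log2 fold change 1.13, SE 0.32, adjusted p = 0.134 by edgeR). Ccng1, a p53 target, was at 17.0 and 18.1 after NEDD8i, against 8.15 and 9.78 in DMSO (log2 fold change 0.97, adjusted p = 0.205 by edgeR). E2f4, E2f5, Sfn and Ccng1 were named for the smallest p in their lists. Both NEDD8i libraries lay above both DMSO libraries for 25% of all genes tested in normalised CPM. The groups were apart for all 4 of these genes, and none passed, although of 13 alternatives Sfn passed in 5 (adjusted p 0.0103 to 0.728 over all of them) and E2f4 in 1 (0.0424 to 0.728).

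Genes of G1/S and DNA replication, used in the phase before, had 0 of 33 tested members past the threshold and a median of -0.66. At an unadjusted p under 0.05, 7 were lower and 0 higher, against 7.86% and 8.62% of all genes tested. Tk1, thymidine kinase, had 2 and 2 reads after NEDD8i, against 56 and 14 in DMSO (adjusted p = 0.0609 by edgeR), and both NEDD8i libraries lay under the floor of 3 reads, so no fold is given. Its adjusted p was 0.142 when DMSO replicate 1 was left out and 1.04e-06 when DMSO replicate 2 was. The replicative helicase subunit Mcm3 had a log2 fold change of -1.08 (adjusted p = 0.146 by edgeR). The summed replication level was 275 and 283 normalised CPM after NEDD8i, against 514 and 365 in DMSO. No list was tested against another.

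**Figure D4:**
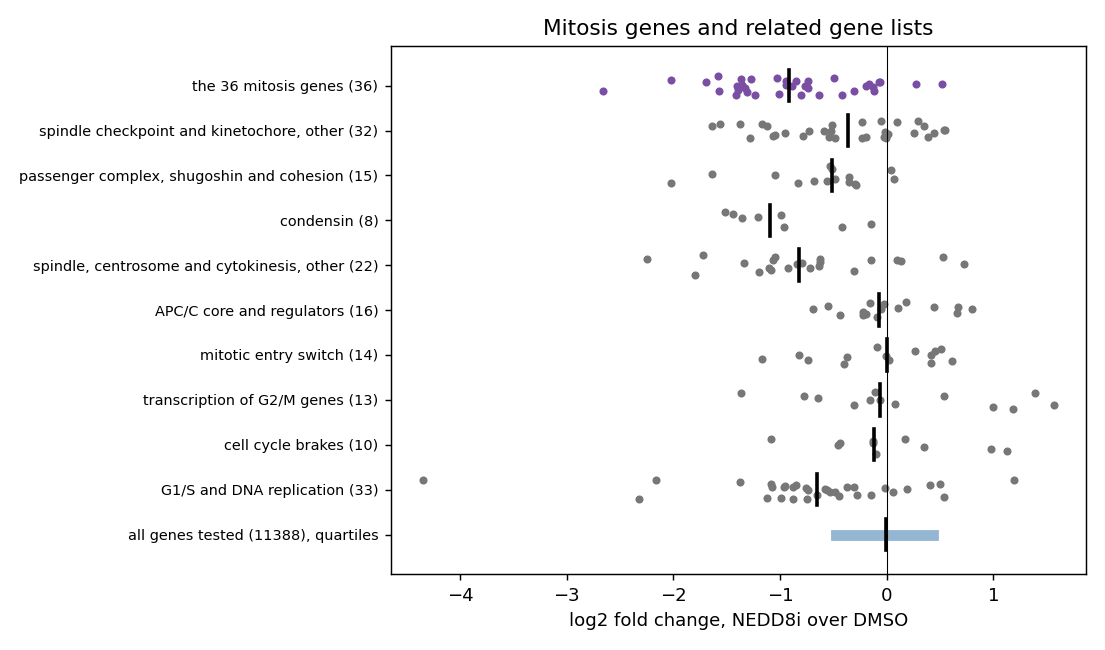
Log2 fold change, NEDD8i over DMSO, of each tested gene in the mitosis genes, 8 related lists and the replication list, with black bars at the medians and the number tested in brackets; the blue bar spans the quartiles of all 11388 genes. Medians lie at -0.91 for the 36 mitosis genes, -1.10 for condensin, and between -0.12 and 0.01 for the APC/C, entry switch, transcription and brake lists.

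Exons of 9 members overlap an antisense gene in the deposited coordinates. For Cdc20 this is Elovl1, with 1084 and 1350 reads after NEDD8i, against 607 and 709 in DMSO, and for Ube2c it is Tnnc2, with 55 and 83 reads after NEDD8i, against 44 and 31 in DMSO, so the values of both mitotic exit genes are uncertain. Others with reads are Exosc9 for Ccna2, Cdc23 for Kif20a, Pdzd11 for Kif4 and Rccd1 for Prc1, and if counting ignored strand, reads of these pairs could not be told apart. Bub1b, Cenpf, Cenpe, Mki67 and Top2a had no overlapping gene.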

How the data were processed

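Libraries of 2 NEDD8i and 2 DMSO skin samples were made with Lexogen's QuantSeq FWD kit, which reads 3′ ends, per the labels' protocols. The authors deposited raw read counts per gene and the exon length of each gene in bases, in a featureCounts layout per the file headers. STAR, featureCounts and DESeq2, and the builds GRCm38 and GRCm39, are named in the submitters' processing notes; versions, strand setting and treatment of multi-mapping reads are not given in the sources used here. Of 52029 genes matched to GENCODE M21 on GRCm38, 2.7% began at the same base, and the coordinates are therefore taken to be GRCm39. Columns were matched to samples by title, and 0 were unused. All pairs of libraries differed by more than sampling noise (reduced chi-square 24.1 to 68.5).

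Counts were tested in R 4.3.3 with edgeR 4.0.16 (TMM factors 0.912 and 0.945 for NEDD8i, 1.18 and 0.982 for DMSO; filterByExpr with a minimum count of 10 and total of 15; robust quasi-likelihood F test; Benjamini-Hochberg over 11388 genes). The model held the group alone, and log2 fold changes had a median standard error of 0.42. Floors cover counting error only. Alternatives were DESeq2 1.42.0, limma-voom (limma 3.58.1), RLE factors, plain library sizes, a table without ribosomal RNA genes, no filter, a fixed filter (10 counts and a CPM above 1 in 2 libraries), no robust option, the replicate block and each library left out. The steps were tested on simulated data.

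The members, lists and tests were chosen with earlier results of these data known. Values in every library are given for members with an unadjusted p under 0.05 and for the 12 with the most reads, and those of some others, such as Plk1, Aurka, Ube2c and Spc25, were added after they were seen. From each related list the 2 genes with the smallest p are named, and the checkpoint genes Mad1l1, Bub3 and Mad2l1, which are not among these, were named as well. Groups tend to lie apart in genes named for a small p, so that separation adds no support to it. In the RefSeq windows, the last bases of 28 of 32 matched a GENCODE transcript of the same gene on the gene's strand.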

Additional observations from a re-analysis of the deposited data

How the results depend on the processing

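The direction of the members as a set held in every alternative run: their median log2 fold change was negative throughout, from -1.25 to -0.70 when 1 library was left out, and -1.13 with plain library sizes, a scaling that moved the median of all genes by -0.22. The summed member level was lower after NEDD8i in all alternatives, from -1.34 to -0.66 on the log2 scale without 1 library, and from -1.49 to -0.62 relative to basal markers.

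Counts of calls were less stable. Members called lower numbered 4 with DESeq2, 0 with limma-voom, 0 with plain library sizes, 6 with no filter, 0 without the robust option and 0 to 12 when 1 library was left out. Of all genes, those lower were 177 with DESeq2, 2 with limma-voom, 318 with no filter, 3 without the robust option and 3 to 712 without 1 library, and those higher were 237 with DESeq2, 25 with limma-voom, 38 with plain library sizes, 385 with no filter, 45 without the robust option and 41 to 692 without 1 library. Other mitosis genes called lower were 3 with DESeq2, 4 with no filter and 0 to 13 without 1 library, and those called higher were 1 with DESeq2, 1 with no filter and 0 to 3 without 1 library. Of single genes, the log2 fold change changed sign when 1 library was left out for Cdc20 (-0.17 without NEDD8i replicate 2, to 0.62), Cdca8 (-0.26, to 0.011 without NEDD8i replicate 1) and Anln (-0.77, to 0.34 without DMSO replicate 2). The cause was not tested.

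The replicate numbers share only a label, and the deviations of same-numbered libraries were weakly and negatively related (correlation -0.13 over 11388 genes). With the replicate block 4 members (Bub1b, Cenpe, Cenpf and Mki67), 106 genes lower and 179 higher were called, and 3 other mitosis genes lower and 1 higher. With the pairing crossed, added after seeing the data, the same 4 members, 235 genes lower and 248 higher and 3 other mitosis genes lower were called. With 2 libraries a group and members of 55 to 3094 reads, changes of the sparsest genes were not resolved.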

Other observations

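Longer members tended to have lower log2 fold changes. Across the 36 mitosis genes the Spearman correlation of log2 fold change with exon length was -0.32, and across all 11388 genes tested it was -0.13. Genes are not independent replicates and share the 4 libraries, so these values are a description only, chosen after the data were seen.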
